A study of Rattus norvegicus with 36 samples.

Results

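The beta-1 adrenergic receptor gene Adrb1 was followed through every library of a study of the rat pineal gland, as the single annotated row ENSRNOG00000017002. It is 1 of 29516 annotated genes, of which 24811 were counted in any of the 36 libraries. The pairing of the symbol with the row was given with the gene and was not derived from the files, which list identifiers only. All animals were Sprague-Dawley rats kept under a 14:10 light:dark cycle. The in vivo experiment used 40-day-old rats of 4 surgical groups, operated, where there was surgery, on postnatal day 5. Their glands were collected either in the middle of the day (ZT7) or in the middle of the night (ZT19). Control rats had no surgery, Sham rats had a sham operation, DCN rats had both superior cervical ganglia (SCG) decentralized, and SCGX rats had both ganglia removed. Each of these 8 groups had 3 libraries, and each library was made from pooled glands, which makes the pool, and not the animal, the replicate. Male and female pups had entered the surgical groups, and the sexes in each pool are not given in the sources used here. In the in vitro experiment, glands of female rats, older than those of the in vivo experiment, were held in organ culture for 48 h. The glands were then left untreated or treated for 6 h with 1 µM norepinephrine (NE) or 500 µM dibutyryl cyclic AMP (DBcAMP). DBcAMP is a form of cyclic AMP that enters cells, and each group had 3 libraries. A last set had 1 library each of day pineal (ZT7), night pineal (ZT19) and a mixture of 15 other tissues, all taken at ZT7.

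Adrb1 encodes a G protein-coupled receptor for norepinephrine and epinephrine that couples through Gs to adenylate cyclase. In the pineal gland, sympathetic fibers from the SCG release norepinephrine at night, and beta-1 receptors on pinealocytes raise cyclic AMP, which drives the nightly synthesis of melatonin. Alpha-1 receptors amplify this response. Like other G protein-coupled receptors, beta-1 receptors are phosphorylated, internalized and resynthesized as stimulation changes, and their mRNA level is one of the inputs to receptor density.

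The 250 bases before the Adrb1 start in RefSeq lie at chr1:265776853-265777102 (GRCr8, + strand), and are shown because culture with DBcAMP or NE is among the comparisons. The capitals mark the core of a cyclic AMP response element, TGACG, which begins 88 bases before the start.
Adrb1: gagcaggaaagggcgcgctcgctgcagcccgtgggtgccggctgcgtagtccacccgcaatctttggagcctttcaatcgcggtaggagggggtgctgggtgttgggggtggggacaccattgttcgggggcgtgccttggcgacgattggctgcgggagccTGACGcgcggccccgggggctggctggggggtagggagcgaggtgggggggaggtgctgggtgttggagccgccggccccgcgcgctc
The window is 72.0% G and C. Among 33469 RefSeq promoters of the same length, 18.2% held TGACG on either strand. The full palindromic element TGACGTCA, which contains that core, was held by 1.59% of promoters and had no match in this window. A CAAT box, CCAAT on either strand, lay 104 bases before the start on the reverse strand and was held by 34.0% of promoters. A TATA box, TATAAA, held by 12.9%, and a GC box, GGGCGG, held by 30.5%, had no match here. These are matches of letters, and binding was not measured. The files use the older rn4 assembly, so the position is that of RefSeq and not of the counts.

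Adrb1 was counted over 1401 bases, a length recovered from the read-pair counts and the RPKM values. This equals 467 codons exactly, and 51.4% of genes with a count had a recovered length divisible by 3. Whether the counted model holds untranslated regions was not tested. In RefSeq, 0 other genes overlap Adrb1. Library totals on genes were 12985072 to 18504240 read-pairs in vivo, 12556861 to 18524435 in vitro and 28836161 to 38574186 in the last set. Adrb1 had 360 to 1457 read-pairs in vivo, 196 to 970 in vitro and 122 in the mixed tissue.

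A pair of in vivo libraries stood apart from the rest on principal components, a check that was not planned in advance. On the second principal component of the 500 most variable genes, which held 25.6% of their variance, DCN day replicate 1 was at 56.3 and Sham night replicate 3 at 46.9, against -20.7 to 2.4 for the other libraries. They held the lowest and the highest Adrb1 level in vivo, in that order. Group means and fold changes that use them are given with and without each, and the correlations without both. Their part in those results was not tested further. Markers of pinealocytes and of other cell types were not analysed here, so the labelled tissue was not checked against them.

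Across the 24 in vivo libraries, the Adrb1 level was 16.2 to 73.7 RPKM with a median of 32.7 RPKM, and between 78.8% and 95.5% of genes had a lower RPKM in the same library. The 3 Control day libraries were at 29.7, 37.7 and 41.8 RPKM (mean 36.4 ± 6.10, SD, n = 3). The 3 Control night libraries were at 40.5, 23.6 and 42.9 RPKM (35.7 ± 10.5, SD, n = 3). Day and night overlapped, with a night library below every day library and another above. The Sham day libraries were at 51.4, 33.9 and 26.6 RPKM (37.3 ± 12.7, SD, n = 3). At night the Sham libraries were at 35.0, 32.3 and 73.7 RPKM (47.0 ± 23.2, SD, n = 3), and without replicate 3 the mean was 33.7 ± 1.90 (SD, n = 2). The Sham night mean was thus the highest of the 8 with that library and below both Control means without it.

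DCN night had the lowest mean in vivo, and the DCN day libraries spread wider. By day the DCN libraries were at 16.2, 34.0 and 22.6 RPKM (24.2 ± 9.01, SD, n = 3), or 28.3 ± 8.06 (SD, n = 2) without replicate 1. At night they were at 21.9, 22.0 and 18.4 RPKM (20.8 ± 2.02, SD, n = 3). All 3 DCN night libraries lay below every Control and Sham library, day or night. How many of all genes are separated in this way was not computed. The SCGX libraries were at 33.1, 23.1 and 30.1 RPKM by day (28.8 ± 5.14, SD, n = 3). At night they were at 21.4, 34.9 and 41.8 RPKM (32.7 ± 10.4, SD, n = 3). SCGX libraries overlapped both the DCN and the Sham ranges. Ordered by mean RPKM from high to low, the groups were Sham night, Sham day, Control day, Control night, SCGX night, SCGX day, DCN day and DCN night, and in each pair of neighbours in this order the libraries overlapped. In whole glands, fewer receptor-bearing cells and less RNA per cell cannot be told apart.

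**Figure D1:**
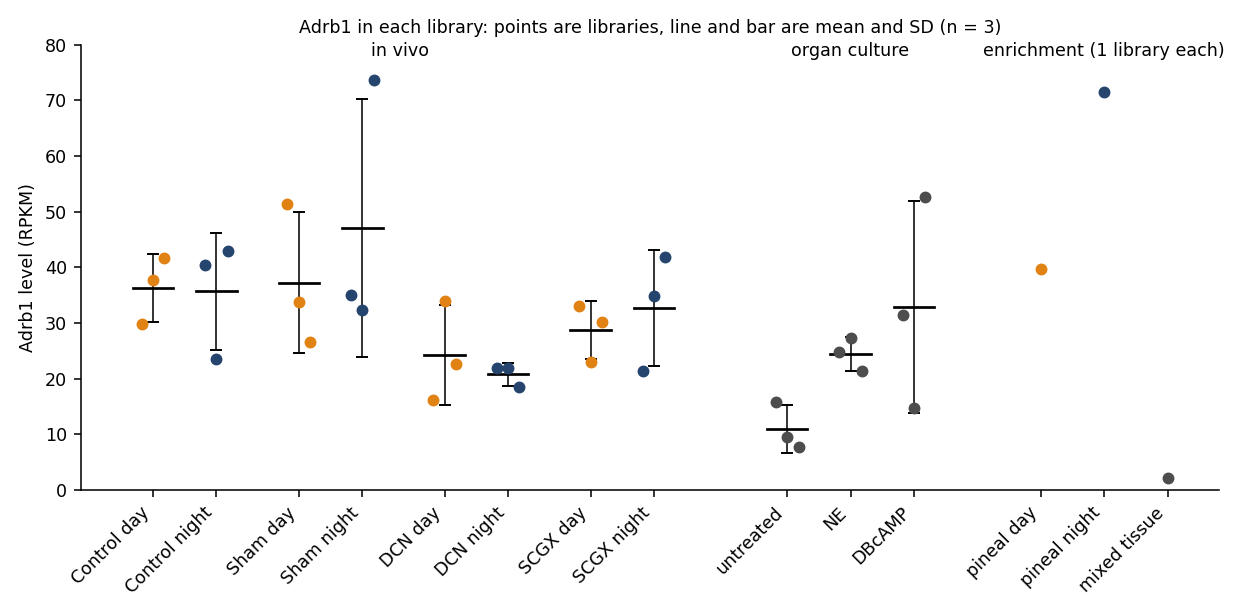
Adrb1 level in RPKM in each of the 36 libraries, by group; points are libraries (orange day, blue night, gray neither), horizontal lines and bars are the mean and SD of 3 libraries, and the last 3 groups have 1 library each. The 3 DCN night libraries sit between 18.4 and 22.0 RPKM, below every Control and Sham library, and the untreated cultures between 7.71 and 15.9 RPKM.

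The spread between replicate pools was larger than counting alone gives. The coefficient of variation of RPKM within a group was 9.74% in DCN night and 57.6% in DBcAMP, the lowest and the highest, and that of Sham night was 49.3% with replicate 3 and 5.64% without it, below that of DCN night. Counting error alone at the mean counts was 3.12% to 6.48%. In edgeR's fit of DBcAMP against untreated glands, the variation of Adrb1 between libraries was 28.9% against 10.04% for the median gene, and 97.7% of genes varied less. In the pairwise comparisons in vivo, 59.9% to 87.3% of genes varied less than Adrb1. The intervals given with each comparison carry this spread.

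**Figure D2:**
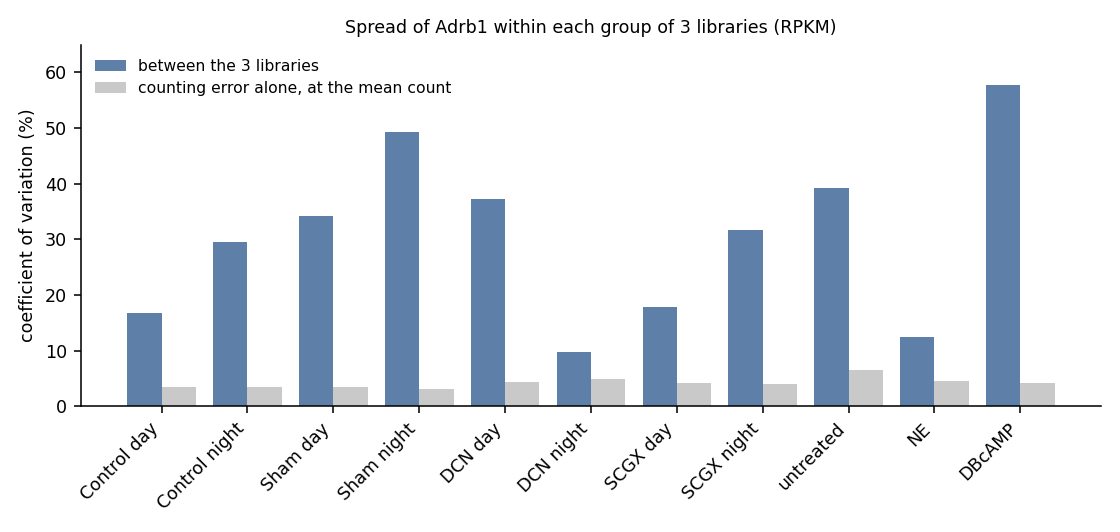
Coefficient of variation of the Adrb1 RPKM between the 3 libraries of each group (dark bars, percent) beside the variation that counting gives at the mean count (light bars). DBcAMP and Sham night have the tallest dark bars and DCN night the shortest at 9.74%, but without replicate 3 Sham night would be at 5.64%.

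The first question was whether Adrb1 mRNA differs between night and day. Every night/day test used edgeR's quasi-likelihood test on the counts, with Benjamini-Hochberg adjustment over all genes tested and the study's threshold of adjusted p under 0.001. A second threshold of 0.05 is given beside it. In Control, the night/day log2 fold change of Adrb1 was 0.15 (95% interval -0.33 to 0.62, adjusted p = 0.627). In the same comparison 9.39% of genes passed 0.001 and 35.3% passed 0.05. The sign turned with the scaling: mean RPKM was lower at night than by day, and scaling by library size alone gave -0.03, where the median of all genes was -0.21. In Sham, the log2 fold change was 0.38 (-0.47 to 1.24, adjusted p = 0.507, edgeR), where 2.27% and 20.6% of genes passed. It was 0.038 without Sham night replicate 3 and 0.69 without Sham day replicate 1. Neither difference was larger than the spread between libraries.

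With the central input removed, the night/day log2 fold change was -0.19 in DCN (-0.76 to 0.38, adjusted p = 0.847, edgeR) and -0.41 without DCN day replicate 1. In that comparison 0.0% of genes passed either threshold by edgeR, 1431 genes had an unadjusted p under 0.05, and DESeq2 passed 105 genes at 0.05. In SCGX it was 0.14 (-0.35 to 0.64, adjusted p = 0.782), where 0.0129% of genes passed 0.001 and 1.85% passed 0.05. A model of the 12 Control and Sham libraries together, chosen after the data were seen, gave a log2 fold change of 0.23 (-0.27 to 0.72, adjusted p = 0.474 by edgeR, exact permutation within groups p = 0.3, two-sided), and 19.4% of genes passed 0.001 and 41.5% passed 0.05 in that model. The upper end of that interval corresponds to a night level 1.65 times the day level. Without Sham night replicate 3 the joint log2 fold change was 0.11. The night/day difference of Adrb1 was not shown to differ between groups: in the 4 edgeR interactions of group and time, 0 had an adjusted p under 0.05, and the smallest unadjusted p was 0.210. The DCN against Sham interaction was -0.61 on the log2 scale (-1.61 to 0.39, adjusted p = 0.440), -0.23 without Sham night replicate 3 and -0.83 without DCN day replicate 1, while 11.2% of genes passed 0.05 in it. The SCGX against Sham interaction was -0.30 (-1.30 to 0.70, adjusted p = 0.720), where 18.5% of genes passed 0.05, and turned to 0.10 without Sham night replicate 3. In the Sham against Control interaction, at 0.32 for Adrb1 (adjusted p = 0.868) and -0.11 without that library, 0.0126% of genes passed 0.05. The SCGX against DCN interaction was 0.34 (adjusted p = 0.770, edgeR) and 0.55 without DCN day replicate 1. Leaving out 1 library gave 0.036 (without DCN day replicate 2) to 0.57 (without SCGX night replicate 1). In this interaction 0.0% of genes passed 0.05 by edgeR, 1665 genes had an unadjusted p under 0.05, and DESeq2 passed 43 at 0.05.

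The second question was whether the receptor mRNA differs once the central input is cut or the ganglia are removed. The study states that sympathetic fibers in the gland are kept after DCN and lost after SCGX. DCN and SCGX were each compared with Sham at the same time of day. These comparisons share the Sham libraries. At night, the DCN level of Adrb1 was lower than the Sham level by a factor of 2.42 (1.49 to 3.93). This is a log2 fold change of -1.27 (-1.98 to -0.57). No DCN library overlapped a Sham library, a separation that was not counted over all genes. The adjusted p was 0.0294 by edgeR, past 0.05 but not 0.001. It was 0.301 with Benjamini-Yekutieli adjustment and 0.0613 with the replicate number as a block (edgeR), both above 0.05. The replicate number was not found to pair libraries, so the block is an arbitrary one. In this comparison 0.878% of genes passed 0.001, 17.1% passed 0.05 in either direction, and 8.09% passed 0.05 as lower in DCN. Without Sham night replicate 3, the log2 fold change was -0.91 with an adjusted p of 0.00293 (edgeR). Leaving out any 1 of the 3 DCN night libraries gave an adjusted p of 0.0904 to 0.101, with log2 fold changes of -1.32 to -1.21. DESeq2 1.42.0 gave -1.33 with an adjusted p of 5.03e-05, past 0.001. The study used an earlier version of this tool, 1.2.10, so this is not its own result. Its list of genes changed in DCN against Sham both by day and at night does not hold Adrb1.

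By day, the DCN against Sham log2 fold change was -0.68 (-1.43 to 0.06, adjusted p = 0.255, edgeR), where 2.53% of genes passed 0.05. Without DCN day replicate 1 it was -0.46, without Sham day replicate 1 -0.38, and the largest difference, -0.99, was found without DCN day replicate 2. By day the DCN and Sham libraries overlapped. With day and night in 1 model, chosen after the data were seen, DCN was lower than Sham by a factor of 2.01 (1.39 to 2.90), a log2 fold change of -1.01 (adjusted p = 0.0281, edgeR). The adjusted p was 0.288 with Benjamini-Yekutieli adjustment and 0.0620 with the replicate number as an arbitrary block (edgeR), both above 0.05, and 0.000900 with DESeq2. An exact permutation test that exchanged libraries within each time of day gave p = 0.01 (two-sided, 400 arrangements, smallest possible 0.005). In this model 8.66% of genes passed 0.05 and 0.131% passed 0.001. Without DCN day replicate 1 the log2 fold change was -0.93 (adjusted p = 0.0406, edgeR), and without Sham night replicate 3 it was -0.80 (adjusted p = 0.0295, edgeR). Without any 1 of the DCN night libraries the adjusted p was 0.0650 to 0.0686.

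After removal of the ganglia, the Adrb1 level was nearer to Sham in point estimate than after decentralization, and the intervals included 0 at each time of day. The SCGX against Sham log2 fold change was -0.35 by day (-0.90 to 0.19, adjusted p = 0.374, edgeR), where 11.4% of genes passed 0.05. Leaving out Sham day replicate 1 gave -0.051, leaving out Sham day replicate 3 gave -0.55, and leaving out SCGX day replicate 2 gave -0.21. At night it was -0.61 (-1.45 to 0.23, adjusted p = 0.274, edgeR), where 20.8% passed 0.05, and -0.26 without Sham night replicate 3. The model of both times gave -0.50 (-1.01 to -0.00089, adjusted p = 0.194 by edgeR, exact permutation p = 0.11). This interval ends just below 0 for Adrb1 taken alone. In this model 7.22% of genes passed 0.05, and the log2 fold change was -0.31 without Sham night replicate 3. At both times the lower end of the SCGX interval lay below the DCN estimate.

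Set directly against each other, SCGX libraries were higher than DCN libraries in mean at both times. At night the log2 fold change was 0.66 (0.16 to 1.17), an interval above 0 for Adrb1 taken alone, with an adjusted p of 1.00 over all genes (edgeR). In that comparison 0.0% of genes passed either threshold by edgeR, 592 had an unadjusted p under 0.05, and DESeq2 passed 9 at 0.05. By day it was 0.33 (-0.27 to 0.92, adjusted p = 0.512, edgeR), where 0.761% of genes passed 0.05, and 0.10 without DCN day replicate 1. With both times in 1 model it was 0.49 (0.08 to 0.90, adjusted p = 0.309 by edgeR, exact permutation p = 0.055), where 0.0% of genes passed 0.05 by edgeR, 2052 had an unadjusted p under 0.05, and DESeq2 passed 245 at 0.05. Without DCN day replicate 1 it was 0.40. The difference between decentralized and ganglionectomized glands did not pass the adjustment at either time. Sham and Control, which test the operation itself, had a log2 fold change of 0.02 by day (-0.52 to 0.56, adjusted p = 0.989, edgeR) and 0.35 at night (-0.47 to 1.17, adjusted p = 0.748, edgeR). The night value was -0.08 without Sham night replicate 3, and by day 0.0316% of genes passed 0.05. At night 0.0% passed by edgeR, 1096 had an unadjusted p under 0.05, and DESeq2 passed 59 at 0.05.

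**Figure D3:**
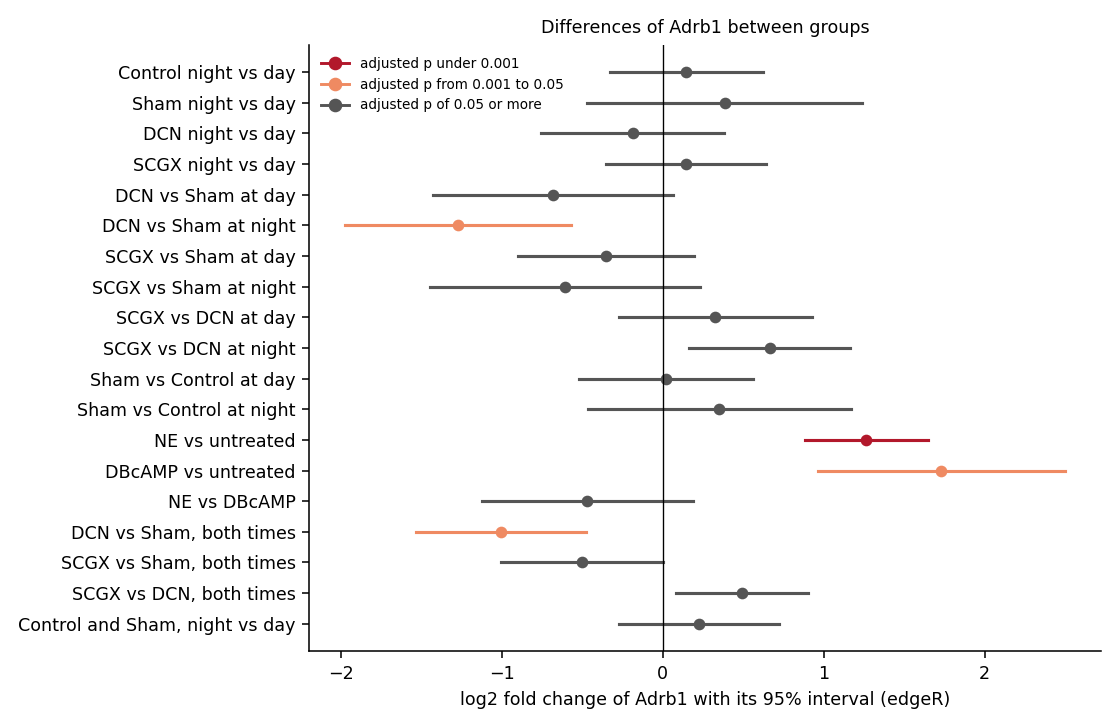
Log2 fold change of Adrb1 with its 95% interval (edgeR) in the 15 comparisons of 2 groups and in the 4 models that join times or groups; color gives the range of the adjusted p. Only NE against untreated is past 0.001, and DCN against Sham at night, DCN against Sham at both times and DBcAMP against untreated lie between 0.001 and 0.05.

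The third question was whether the neurotransmitter or its second messenger changes the receptor mRNA in glands cut off from their nerves in culture. The 3 untreated cultures were at 15.9, 9.47 and 7.71 RPKM (11.03 ± 4.32, SD, n = 3). The NE cultures were at 24.8, 27.4 and 21.3 RPKM (24.5 ± 3.05, SD, n = 3). Every NE library was above every untreated library, a separation that was not counted over all genes. Adrb1 rose by a factor of 2.40 with NE (1.84 to 3.13), a log2 fold change of 1.26 (0.88 to 1.65, adjusted p = 5.57e-05, edgeR). In that comparison 11.3% of genes passed 0.001, 6.69% passed it as higher with NE, and 30.2% passed 0.05. Of 15219 genes tested, 408 (2.68%) had a more positive log2 fold change than Adrb1. Leaving out each of the 6 libraries in turn gave log2 fold changes of 1.063 to 1.597 with adjusted p no higher than 0.000553 (edgeR). With the DBcAMP libraries in the same model the log2 fold change was again 1.26, with an adjusted p of 0.00880 (edgeR), no longer past 0.001.

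The DBcAMP cultures were at 31.4, 14.7 and 52.6 RPKM (32.9 ± 18.97, SD, n = 3). In RPKM the lowest DBcAMP library, replicate 2, was below the highest untreated library. With counts scaled by TMM (CPM), the order of these libraries changed, to 21.6 CPM in DBcAMP replicate 2 and 20.6 CPM in untreated replicate 1, and the groups no longer overlapped. The log2 fold change was 1.73 (0.96 to 2.50), a factor of 3.32 (1.95 to 5.66), with an adjusted p of 0.00173 (edgeR), past 0.05 but not 0.001. In the same comparison 16.7% of genes passed 0.001 and 42.0% passed 0.05, with 19.4% higher. Without DBcAMP replicate 2 the log2 fold change was 2.09 with an adjusted p of 2.25e-05, and without replicate 3 it was 1.22 with an adjusted p of 0.00595 (edgeR). Of 15196 genes tested, 328 (2.16%) had a more positive log2 fold change.

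NE and DBcAMP were compared with the same untreated libraries, so their differences from untreated are not independent of each other. Compared directly, NE was lower than DBcAMP by 0.47 on the log2 scale (95% interval of the log2 fold change -1.13 to 0.18, adjusted p = 0.429, edgeR), where 6.07% of genes passed 0.05. The NE libraries lay inside the range of the DBcAMP libraries. The direction reversed without DBcAMP replicate 3 (0.04), and without replicate 2 the log2 fold change was -0.82 (adjusted p = 0.0121, edgeR). All 3 untreated cultures, at 7.71 to 15.9 RPKM, were below the lowest in vivo library, DCN day replicate 1 at 16.2 RPKM. That library stood apart, and the next lowest was DCN night replicate 3 at 18.4 RPKM. How many of all genes are separated in this way was not computed. The experiments were prepared and sequenced apart, and the cultures came from older rats that were female only. These levels are therefore set side by side without a test.

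The last question was how far Adrb1 is enriched in the pineal gland over other tissues, from 1 library each and so with no replicate check. The level was 39.7 RPKM in the day gland, 71.5 RPKM in the night gland and 2.26 RPKM in the mixture, with 1603, 3681 and 122 read-pairs. The mixture held heart, where beta-1 receptors drive heart rate and force, and several brain regions, so it is not a tissue set that lacks the receptor. The day gland was 17.7 times the mixture in normalized counts (14.7 to 21.4, exact binomial 95% interval) and the night gland 36.9 times (30.8 to 44.5). These intervals cover counting error only. The mixture was taken by day, so in the night ratio tissue and time of day cannot be told apart. Of 15300 genes, 110 had a higher ratio by day, and of 15343 genes, 69 had a higher ratio by night. A ratio over 8 was found for 1.44% of genes by day and 2.35% by night, Adrb1 among them each time.

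In this set, the night gland had 2.11 times the normalized count of the day gland (1.99 to 2.24, counting error only), and a ratio of 1.802 in RPKM. Of 16139 genes, 6.67% had a night/day ratio at least as high. The night library was within the in vivo range only through Sham night replicate 3 at 73.7 RPKM, a library that stood apart. The next highest in vivo library, Sham day replicate 1, was at 51.4 RPKM. The replicated night/day comparisons gave factors of 1.11 in Control (0.795 to 1.54) and 1.30 in Sham (0.721 to 2.36). With single pools varying as in the plot of levels by library, a pair of libraries cannot separate time of day from pool.

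**Figure D4:**
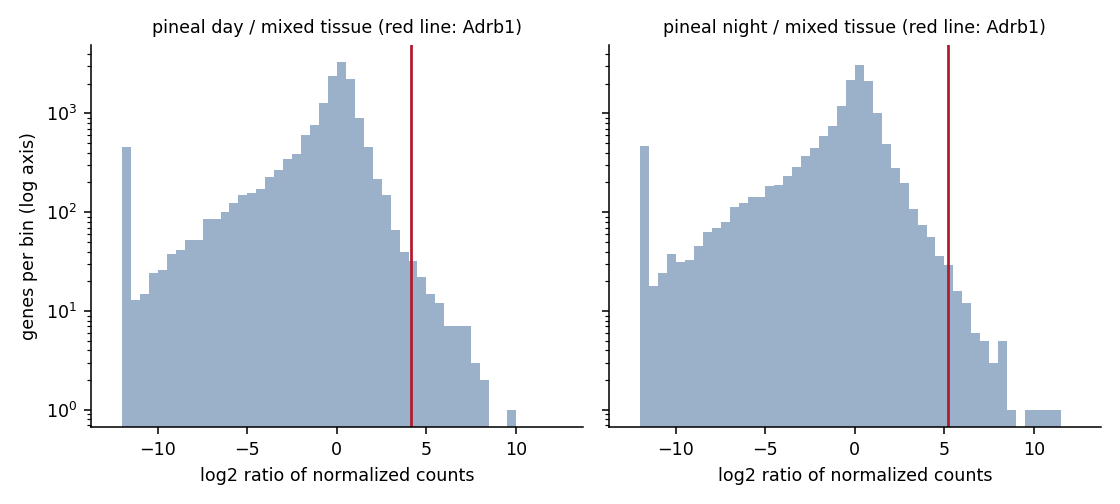
Distribution over genes of the log2 ratio of normalized counts in the day pineal library (left) and the night pineal library (right) over the mixed tissue library; the vertical axis is a log axis of genes per bin, the leftmost bar holds every ratio at or below its range, genes with no count in the mixture are not drawn, and the red line is Adrb1. The line lies in the right tail, with 110 genes above it by day and 69 by night, those with no count in the mixture included.

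The pattern of Adrb1 over the 24 in vivo libraries was then compared with that of the 11697 genes whose normalized counts averaged 50 or more. These correlations are descriptions: the libraries share groups, depth and a pair of libraries that stand apart. By Pearson r the most similar genes were ENSRNOG00000039274, with a Pearson r of 0.858 and a Spearman rho of 0.868, and ENSRNOG00000018781, with 0.840 and 0.861. The lowest Pearson r were those of ENSRNOG00000014869 at -0.794 (rho -0.731) and ENSRNOG00000010234 at -0.793 (rho -0.763), which ranked 12.5 and 6 from the lowest by Spearman rho. Without DCN day replicate 1 and Sham night replicate 3, the Pearson r were 0.831, 0.846, -0.685 and -0.807 over 22 libraries, in the order named. Then 2 genes had a higher r than ENSRNOG00000039274 and 1 had a higher r than ENSRNOG00000018781. A lower r than that of ENSRNOG00000014869 was found for 41 genes, and than that of ENSRNOG00000010234 for 0. Over all 24 libraries the median gene was at r = -0.0153, and 644 genes (5.51%) were over 0.5.

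In the 9 cultures, which this choice did not use, ENSRNOG00000039274 had r = 0.648 with Adrb1 and ENSRNOG00000018781 r = 0.810. ENSRNOG00000014869 was at -0.814 there and ENSRNOG00000010234 at -0.568. The cultures differ by treatment, and 30.2% of genes passed 0.05 with NE and 42.0% with DBcAMP (edgeR). How common such r are among all genes in the cultures was not computed. The NE log2 fold changes were -0.01 for ENSRNOG00000039274 and 0.30 for ENSRNOG00000018781, with adjusted p = 0.985 and 0.163 (edgeR), beside 1.26 for Adrb1. With DBcAMP these were 0.51 and 0.38, with adjusted p = 0.467 and 0.302 (edgeR). Neither of these genes passed a threshold with NE or DBcAMP. ENSRNOG00000014869 was lower with both, at -0.49 with NE (adjusted p = 0.0457, edgeR) and -0.53 with DBcAMP (adjusted p = 0.0339, edgeR), past 0.05 and opposite in sign to Adrb1. ENSRNOG00000010234 was at -0.13 and -0.21, with adjusted p = 0.279 and 0.0701 (edgeR).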

How the data were processed

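The 36 libraries were grouped by their labels. The authors made stranded, ribosomal RNA-depleted libraries, base-called with CASAVA 1.8.2, aligned read-pairs to rn4 with RNA-STAR 2.3.1y and, with QoRTs, counted those unique to an Ensembl gene by the union rule of HTSeq. As deposited, the counts are read-pairs per gene, not normalized. The authors also deposited RPKM, which served here for levels. Tests were run on counts with edgeR 4.0.16 (TMM, quasi-likelihood test, genes whose normalized counts averaged 5 or more, Benjamini-Hochberg adjustment) in R 4.3.3 and checked on simulated counts. Alternatives were DESeq2 1.42.0, other scalings and filters, all libraries of an experiment in 1 model, Benjamini-Yekutieli adjustment, the replicate number as a block and leaving out each library. Exact permutation tests used log2 CPM with a prior count of 2. With 3 libraries against 3 such a test cannot go below 0.1. Promoter motifs were searched with Python 3.11.15.

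The gene, lists and tests were chosen with earlier results of these data known. Adrb1 was to be named in every library and comparison, with the genes most like it by correlation over the in vivo libraries. The gene table used here pairs 0 Ensembl identifiers with symbols, so lists of adrenergic receptors, cyclases, G proteins and protein kinase C, phosphodiesterases, protein kinase A and CREB, desensitization, melatonin synthesis and cell type markers were not analysed here, and at most 2 identifiers per direction are named. Protein sequence was not used here.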

Additional observations from a re-analysis of the deposited data

How the results depend on the processing

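Over 23 tested results and 370 alternatives, 353 kept the direction of Adrb1 and its side of adjusted p = 0.001, 1 lost the call, 5 gained it and 11 reversed. Only NE against untreated was past 0.001 at first, so for every other result keeping its side meant staying uncalled. Benjamini-Yekutieli adjustment keeps the fold change and cannot add a call, so this tally is not a measure of robustness. NE against untreated lost the call with all cultures in 1 model (log2 fold change 1.26, adjusted p = 0.00880, edgeR). DBcAMP against untreated gained it with no count filter (1.73, adjusted p = 2.06e-18) and with all cultures in 1 model (1.74, adjusted p = 0.000512). With DESeq2, DCN against Sham gained it at night (-1.33, adjusted p = 5.03e-05) and over both times (-1.02, adjusted p = 0.000900). With no count filter, NE against untreated went to an adjusted p of 3.08e-28 (edgeR). Its log2 fold change stayed at 1.26, as that of DBcAMP stayed at 1.73. Neither drop in adjusted p is taken as stronger evidence. Control night/day turned to -0.029 with library size only. Scaling by library size alone moved the median of all genes by over 0.1 in several results. The median went to -0.21 in that comparison, -0.17 in DBcAMP against untreated, 0.14 in DCN against Sham at night and 0.13 in SCGX against Sham at night. It went to 0.18 in the SCGX against Sham interaction and 0.105 in DCN against Sham over both times. This scaling reversed no other Adrb1 result. The causes were not tested.

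Leaving out 1 library gave -0.023 to 0.38 for Control night/day, 0.038 to 0.69 for Sham, -0.41 to 0.12 for DCN, -0.054 to 0.38 for SCGX, -0.99 to -0.38 for DCN against Sham by day, -0.55 to -0.051 for SCGX against Sham by day and -0.82 to -0.26 at night, 0.10 to 0.63 for SCGX against DCN by day, -0.28 to 0.22 for Sham against Control by day and -0.080 to 0.55 at night, -0.82 to 0.044 for NE against DBcAMP, and 1.22 to 2.09 for DBcAMP against untreated, which gained the call without DBcAMP replicate 2. The sign turned without Control night replicate 3, DCN day replicate 2 or SCGX night replicate 3 in night/day, and without Control day replicate 1 or Sham day replicate 1 in Sham against Control by day. The interactions with time ranged over -0.11 to 0.62 for Sham against Control, -0.91 to -0.23 for DCN against Sham, -0.55 to 0.10 for SCGX against Sham and 0.036 to 0.57 for SCGX against DCN.

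Same-numbered libraries share only a number: the correlations of their deviations were -0.247 to 0.200, and in 0 comparisons were all 3 over 0.1. With the replicate number as a block, Sham against Control by day turned to -0.020, DCN against Sham at night was -1.19 (adjusted p = 0.0613, edgeR) and NE against untreated was 1.29 (adjusted p = 4.81e-07, edgeR). Over all genes, the calls at 0.001 went from 140 to 8 in DCN against Sham at night, from 365 to 39 in Sham night/day, from 1467 to 902 in Control night/day, and from 1726 to 1744 for NE. DESeq2 called 1474, 1809, 2754 and 2110 genes in these comparisons. The alternatives for the gene lists were not run.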
